A study of Physcomitrium patens with 8 samples.

Results

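A set of 131 microarray probes, from 118 loci, was read lower in wild-type moss colonies on abscisic acid and again in dried colonies, and was back near its starting level after rehydration. The array holds 38181 different gene probes from 32103 loci, and the 131 were chosen by their wild-type (WT) values alone. A member had to be well above background in WT on both Hydration and both Rehydration arrays, a condition that 6724 probes met. Its mean WT level then had to be at least 1.5 log2 units below Hydration both on ABA and in Dehydration, and to lie above -0.5 in Rehydration minus Hydration. Of the 6724 probes, 355 met both falls, and the 224 of these that stayed 0.5 or more below Hydration after rehydration were no members.

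The samples were protonemal colonies of Physcomitrium patens, the filamentous young stage of the moss, grown at 25 °C in continuous light. All colonies stood on a nutrient-sufficient medium with ammonium tartrate and glucose. The Hydration colonies were 7 days old, and the ABA colonies spent a further 24 h in light on fresh medium with 50 µM cis-trans abscisic acid. The Dehydration colonies were kept for 24 h on filter paper in a closed jar with silica gel, and the Rehydration colonies were dried in that way and then spent 24 h on fresh medium. The labels do not say whether dried colonies had been on ABA. Each treatment had 2 two-colour Agilent arrays, which the labels call biological replicates, and each array carried atg5 RNA in one dye and WT RNA in the other. The atg5 line is 1 knockout line of AUTOPHAGY RELATED GENE 5 and is described in the labels as deficient in autophagy. In replicate 1 of every treatment atg5 carried Cy5 and WT carried Cy3, and in replicate 2 the dyes were exchanged. Replicate number, slide and dye orientation therefore coincide, and every test below rests on 2 arrays per treatment. The labels do not say which colonies were pooled for an extract. The files do not name the probes of ATG5, so the knockout was not checked here.

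Abscisic acid is the hormone through which land plants respond to water loss, and in mosses it lets protonemal cells survive drying that would otherwise kill them. Genes repressed by ABA and by drying in plants commonly serve growth, photosynthesis and cell wall extension, processes that stop as water leaves the cell and start again after rewetting. ATG5 is part of the machinery that attaches ATG8 to lipid while the autophagosome forms, and autophagy breaks down cell contents for reuse. Which of these roles, if any, the members have is not known here. None of the 38181 probes' identifiers matched the annotation at hand, so the members are named by identifier only and no role is given to any of them. The part of an identifier before its V was taken as the locus, so Pp1s97_59V6.1 is a transcript of locus Pp1s97_59.

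Levels below are log2 processed signals minus the median, in the same channel, of the 5475 probes that were well above background in all 16 channels. They compare a probe between samples and do not rank 1 gene above another. Between 37.1% and 53.5% of gene spots were well above background in the Hydration, ABA and Dehydration channels. In Rehydration the share was lower, at 29.2% and 23.4% in atg5 and 19.3% and 30.6% in WT. No gene spot was saturated. The spike-in control spots moved too: relative to them, the median gene probe of Rehydration minus Hydration was -1.18 in atg5 and -4.18 in WT (log2, mean of 2 arrays each). All changes below are therefore relative to the other gene probes. The labels give 200 ng of RNA per labelling for every array, where the series text gives a different amount. RNA per colony and cell number are not given, so neither is read from the spike-in shift. Its cause was not tested. Scaled to the spike-in spots instead, no probe met the rule, and the 131 members had a median WT Rehydration minus Hydration of -3.95, the highest being -1.22. With loess and Aquantile normalized signals in place of processed signals the rule took 57 probes, 35 of them members.

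In WT the members had a median change from Hydration of -2.17 on ABA, -2.27 in Dehydration and 0.22 in Rehydration. These WT changes chose the members and are given as a description, with no test. The largest single difference was -6.53 on ABA and -4.71 in Dehydration. Against Dehydration, the WT Rehydration level was higher by at least 1.32, with a median of 2.87. The same 3 medians over the 6724 detected probes were -0.03, -0.04 and 0.10. At the threshold on ABA, Pp1s15_433V6.4 (-1.51) and Pp1s60_148V6.1 (-1.51) lay just inside and Pp1s96_20V6.1 (-1.495) and Pp1s236_34V6.1 (-1.48) just outside. In Dehydration, Pp1s252_11V6.1 (-1.503) and Pp1s53_245V6.1 (-1.52) lay inside and Pp1s59_314V6.1 (-1.48) and Pp1s75_17V6.1 (-1.46) outside. In Rehydration, Pp1s159_20V6.1 (-0.50) and Pp1s279_85V6.1 (-0.49) lay inside and Pp1s44_117V6.2 (-0.51) and Pp1s37_355V6.1 (-0.51) outside.

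Most members were lower by a like amount on the hormone and after drying in WT. The ABA and Dehydration changes lay within 0.5 of each other in 85 of the 131 members. Dehydration was lower than ABA by 1 or more in 11 members and ABA lower than Dehydration by 1 or more in 6. In 8 of the 11 and 5 of the 6, the WT replicates of one of these treatments lay more than 2 units apart, against 32 of all 131 members. After rehydration, 83 members stood above their WT Hydration level, 18 of them by 1 or more, and 48 lay between -0.5 and 0. The atg5 channels, which the rule did not use, had medians of -2.12 on ABA, -2.21 in Dehydration and -0.51 in Rehydration. Both atg5 falls were below 0 in 127 of 131 members.

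**Figure D1:**
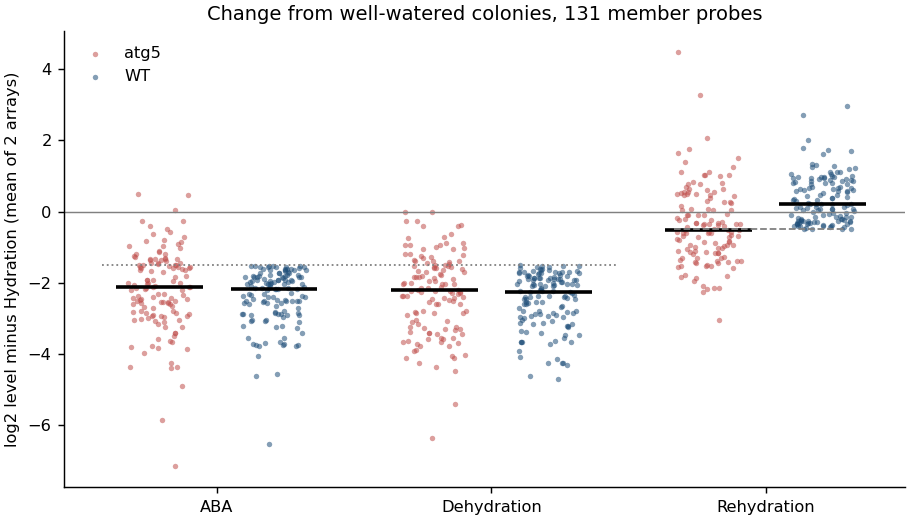
Change from Hydration of the 131 member probes in atg5 (red, left of each pair) and WT (blue, right), as log2 level minus Hydration level, mean of 2 arrays. Points are probes and black bars are medians. The dotted line is the -1.5 threshold on ABA and Dehydration and the dashed line the -0.5 threshold on Rehydration, both applied to WT only. The medians of the genotypes lie close together on ABA and in Dehydration (-2.12 in atg5 and -2.17 in WT on ABA), and in Rehydration the atg5 median is -0.51 and the WT median 0.22.

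Pp1s97_59V6.1 was among the largest WT falls and was measured well above background in all 16 channels. Its atg5 levels were 5.48 and 5.60 in Hydration, 1.63 and 1.54 on ABA, 1.13 and 1.23 in Dehydration, and 4.18 and 4.32 in Rehydration. In WT they were 5.47 and 5.84, then 2.52 and 2.28, then 2.03 and 1.85, and 5.62 and 5.46 in Rehydration. In both genotypes the ABA and dried arrays lay far below the others, with no overlap, and the rehydrated atg5 arrays lay below both Hydration arrays while the WT arrays reached them. In the limma fit of the atg5 channels the transcript fell 18.4-fold on ABA (log2 -4.20, SE 0.25, adjusted p = 5.12e-07) and 24.6-fold in Dehydration (log2 -4.62, SE 0.25, adjusted p = 2.1e-07). Rehydration was 7.84-fold above Dehydration in atg5 (adjusted p = 2.47e-05) and 3.13-fold below Hydration (adjusted p = 0.000491). With spike-in scaling its Rehydration minus Dehydration value in atg5 was -0.08.

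Pp1s201_96V6.1 showed the same order with a less complete return in atg5. In atg5 it had levels of 2.58 and 2.54 in Hydration, -1.12 and -0.75 on ABA, -0.91 and -0.86 in Dehydration, and 1.03 and 1.75 in Rehydration. In WT it had 3.12 and 2.54 in Hydration, -0.69 and -1.21 on ABA, -0.88 and -1.25 in Dehydration, and 2.33 and 3.74 in Rehydration. The rehydrated WT arrays spanned the Hydration arrays, and the rehydrated atg5 arrays lay below theirs. In atg5 the transcript fell 7.40-fold on ABA (adjusted p = 4.24e-07) and 7.63-fold in Dehydration (adjusted p = 3.24e-07), and it was 3.58-fold lower in Rehydration than in Hydration (adjusted p = 1.26e-05).

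Pp1s57_133V6.1 had the largest mean WT fall among the loci, taking the brightest probe of each. The atg5 levels were 0.15 and -0.24 in Hydration, -5.96 and -5.82 on ABA, -6.12 and -6.69 in Dehydration, and -2.82 and -3.35 in Rehydration. The WT levels were 0.73 and 0.84 in Hydration, -4.21 and -3.47 on ABA, -3.71 and -3.25 in Dehydration, and -0.01 and 0.62 in Rehydration. In atg5 the spot was well above background only in Hydration, so its later levels are upper limits. Here and below, "at least" marks a fold against a group in which neither spot was well above background, taken on the normalized scale against the higher of the array's detection floor and the spot itself. In atg5 it was at least 4.42-fold lower on ABA (adjusted p = 1.02e-05), at least 4.88-fold lower in Dehydration (adjusted p = 6.48e-06) and at least 2.30-fold lower in Rehydration (adjusted p = 0.000778) than in Hydration.

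Pp1s170_22V6.1 was read near or above its Hydration level again in rehydrated atg5. The atg5 levels were 0.69 and 0.60 in Hydration, -3.14 and -4.31 on ABA, -4.22 and -3.47 in Dehydration, and 0.54 and 1.70 in Rehydration. The WT levels were 0.69 and 0.26 in Hydration, -3.35 and -3.17 on ABA, -6.08 and -2.37 in Dehydration, and -0.78 and 1.41 in Rehydration. The rehydrated arrays of both genotypes overlapped or reached the Hydration arrays, and the WT replicates stood far apart in the last 2 treatments. In atg5 it fell 5.03-fold on ABA (adjusted p = 0.000297) and 5.27-fold in Dehydration (adjusted p = 0.000211), rose 5.61-fold between Dehydration and Rehydration (adjusted p = 0.000329), and did not pass the test between Rehydration and Hydration (log2 0.09, SE 0.32, adjusted p = 0.857).

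**Figure D2:**
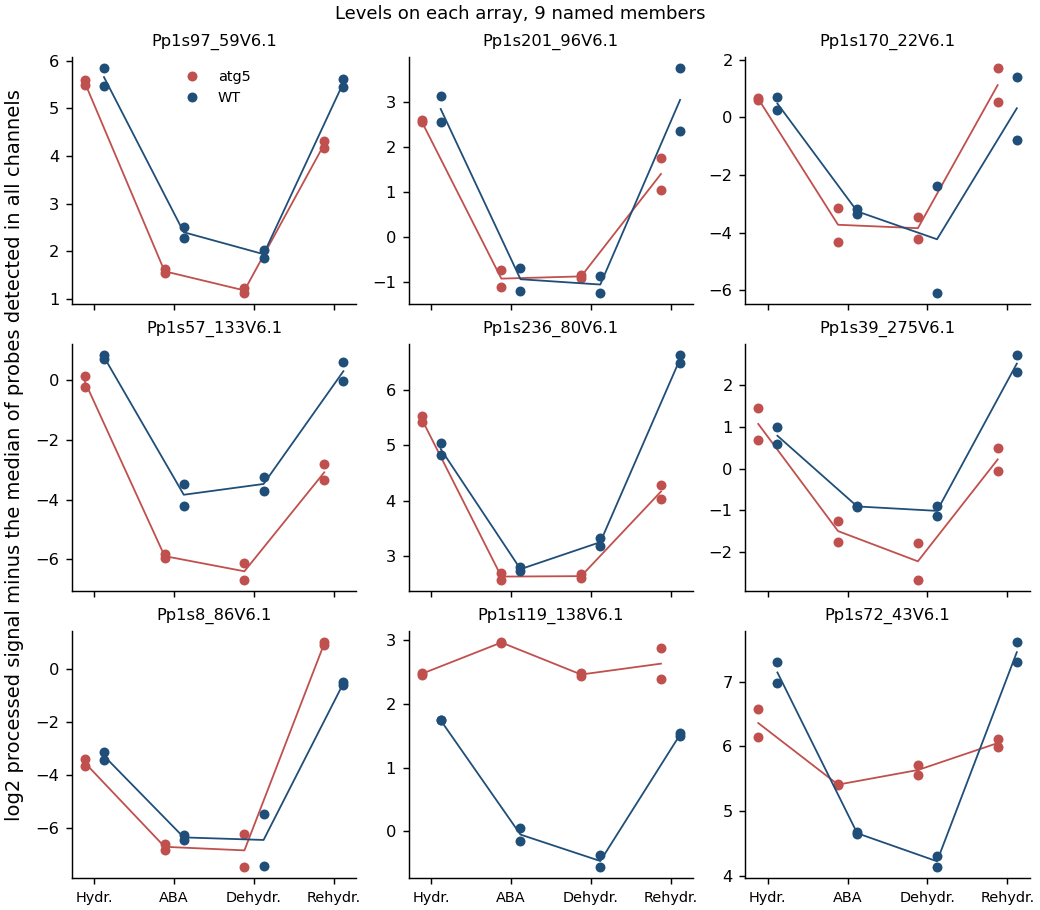
Level on each array of 9 named members, with log2 processed signal minus the channel median on the vertical axis and the 4 treatments on the horizontal one. Dots are single arrays, 2 per genotype and treatment, with atg5 in red (left) and WT in blue (right), and lines join the means. Each panel has its own vertical scale. Pp1s119_138V6.1 stays between 2.39 and 2.97 in atg5 and drops in WT, while Pp1s236_80V6.1 drops in both and returns above Hydration in WT alone (6.49 and 6.62, against 4.29 and 4.04 in atg5).

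The other members with the largest WT falls followed the pattern with more noise. In atg5, Pp1s194_4V6.2 fell 4.26-fold on ABA (adjusted p = 2.68e-05) and 4.78-fold in Dehydration (adjusted p = 1.38e-05), and was 2.02-fold lower in Rehydration than in Hydration (adjusted p = 0.00327). Pp1s57_188V6.2 fell 8.14-fold on ABA (adjusted p = 0.000414) and 6.41-fold in Dehydration (adjusted p = 0.000851), although its atg5 Hydration arrays read 1.10 and 2.61. Pp1s13_239V6.1 fell 3.82-fold on ABA (adjusted p = 0.00696) and 4.15-fold in Dehydration (adjusted p = 0.00422), with atg5 Hydration arrays at 0.94 and -1.06. The replicates of the last pair of probes differed in Hydration by more than 1 unit in WT as well. Pp1s218_19V6.1 was at least 2.39-fold lower on ABA (adjusted p = 0.0025) and at least 2.37-fold lower in Dehydration (adjusted p = 0.00662). Pp1s48_131V6.1 was at least 1.72-fold lower on ABA (adjusted p = 0.00372) and fell 1.63-fold in Dehydration (adjusted p = 0.0119). Its atg5 level was already lower in Hydration, at -2.30 and -2.68, against -0.49 and -0.69 in WT. Pp1s72_188V6.1 fell 2.56-fold in Dehydration (adjusted p = 0.0233), while its ABA value in atg5 was -0.66 (SE 0.38, adjusted p = 0.275) and the ABA replicates disagreed, at -3.32 and -1.21.

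Most members in the fit were also called lower in the atg5 channels, which share their spots with WT. The atg5 test used a limma separate-channel fit of 19141 probes, which held 123 of the 131 members, the other 8 having outlier-marked spots. Every member passed the fit's filter on dim probes through its WT spots in Hydration and Rehydration. Other probes could pass through any group, so the shares below are not like for like. The atg5 channels were not used by the rule, but they share array, spot and hybridisation with WT, and the correlation of the channels within spots was 0.678. On ABA Pp1s104_42V6.1 read 3.35 and -1.5 in WT and 3.28 and -1.97 in atg5, so its replicate gap was in both channels. The calls are therefore a description and no independent test of the WT falls. On ABA 86 of the 123 members were called lower in atg5 (69.9%), against 12.2% of all probes tested, and the other 37 did not pass. None was called higher by limma, adjusted or not, where 9.99% of all probes were. The median log2 difference was -1.04 over the members and -0.03 over all probes, and 59 of the called members changed at least 2-fold. In Dehydration 85 members were called lower (69.1%, against 13.3% of all probes) and again none higher, adjusted or not (12.6% of all probes), with a median of -1.03, against 0.00 over all probes. When arrays were only median-centred within themselves the counts were 16 on ABA and 23 in Dehydration (13.0% and 18.7%). Of all probes, 2.64% and 3.62% were then called in either direction. With spike-in scaling the counts lower were 51 and 40. In either direction 41.5% and 35.0% of the members were then called, against 10.4% and 41.0% of all probes. The fit's values and the levels above come from differently corrected signals and are not on 1 scale.

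The members' calls were also counted by spot brightness. All probes were not counted in this way, so nothing is read from the difference between brighter and dimmer members. Of the 57 members whose WT Hydration level lay above the median detected probe, 52 were in the fit, and 44 of these were called lower on ABA and 43 in Dehydration. Of the 74 others, 71 were in the fit, with 42 called lower on ABA and 42 in Dehydration. Neither atg5 spot was well above background in 22 members on ABA, 14 in Dehydration, 17 in Rehydration and 1 in Hydration. In WT the numbers were 8 on ABA and 3 in Dehydration. On the level scale, the atg5 arrays of ABA all lay below those of Hydration in 118 members, and those of Dehydration likewise in 118, where 38.5% and 39.4% of the 6724 detected probes did so.

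**Figure D3:**
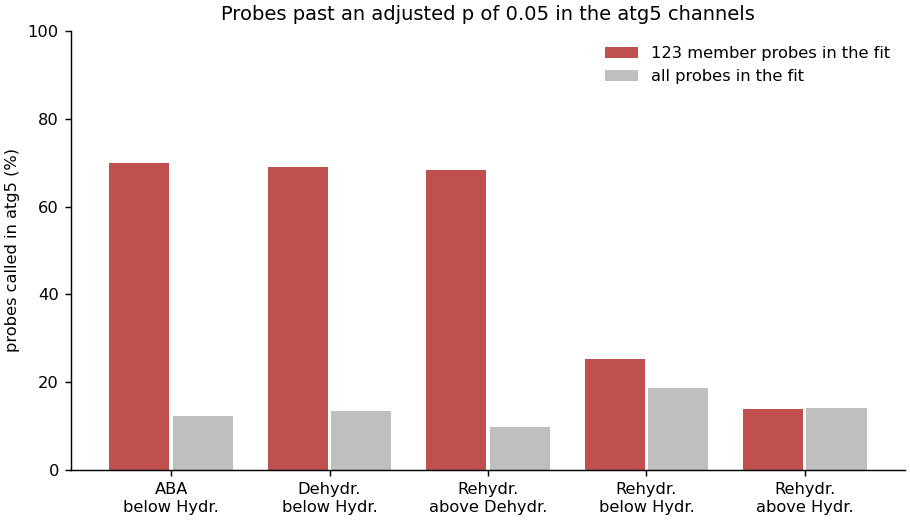
Share of the 123 members in the fit (red, left) and of all 19141 probes in the fit (grey, right) that passed an adjusted p of 0.05 in the atg5 channels, by comparison and direction. Members stand far above all probes for ABA and Dehydration below Hydration (69.9% and 69.1%, against 12.2% and 13.3%) and for Rehydration above Dehydration (68.3%, against 9.69%). For Rehydration against Hydration the shares are closer, 25.2% against 18.7% lower and 13.8% against 14.0% higher. Members passed the fit's filter through WT Hydration and Rehydration spots, and other probes could pass through any group.

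Most members in the fit were called higher again in rehydrated atg5 colonies, with the same limits of filter and shared spots. Against Dehydration, 84 of the 123 members were called higher in atg5 (68.3%), against 9.69% of all probes. None was called lower by limma (13.7% of all probes), with 2 at an unadjusted p under 0.05. The difference had a median of 1.01, against -0.08 over all probes. Without Dehydration replicate 1 the members' median was 0.81, against -0.08 over all probes. With arrays only median-centred the count higher was 33 (26.8%), against 1.86% of all probes called in either direction. This comparison depends on the scaling. With spike-in scaling in place of between-array quantile normalization, 4 members were called higher and 33 lower. In either direction that was 30.1% of the members, against 60.7% of all probes. The members' median was then -0.41, against -1.14 over all probes. Against Hydration, 31 members were called lower in atg5 (25.2%, against 18.7% of all probes) and 17 higher (13.8%, against 14.0%). The median was -0.10 over the members and -0.08 over all probes, and both shares lay near those of all probes. The count lower was 58 with spike-in scaling, and the count higher was 10 on processed signals, 7 on the atg5 channels alone and 1 with spike-in scaling. With spike-in scaling 48.0% of the members were called in either direction, against 26.8% of all probes. Of the 31 called lower, 24 came from the members above the median detected probe in WT Hydration, and 7 from the others. Here too all probes were not counted by brightness, and nothing is read from these counts.

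**Figure D4:**
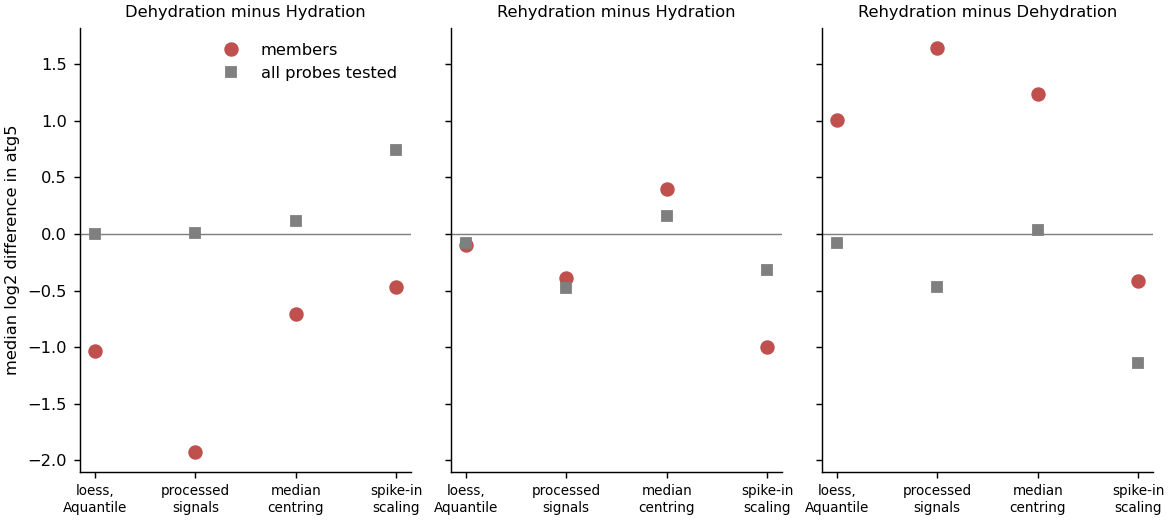
Median log2 difference in the atg5 channels under 4 ways of normalizing, over the members in the fit (red circles) and over all probes tested (grey squares), for Dehydration minus Hydration, Rehydration minus Hydration and Rehydration minus Dehydration. The members lie below all probes in Dehydration and above them in Rehydration minus Dehydration under each of the 4. With spike-in scaling the whole array shifts, by 0.75, -0.32 and -1.14 over all probes, and the members' last median is -0.41.

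On the level scale the members divided in atg5. Both falls reached -1.5 in 86 members (65.6%), against 6.41% of the 6724 detected probes. Of these 86, 33 were above -0.5 in Rehydration, so 25.2% of the members followed the whole WT pattern in atg5, against 1.12% of detected probes. The other 53 of the 86 were at -0.5 or below in Rehydration, 38 of them at -1 or below. Over all members, the atg5 Rehydration value was -0.5 or less in 50.4%, against 30.2% of detected probes. The members were picked by WT Rehydration values above -0.5, so lower atg5 values there can come from that choice. Nothing is therefore read from this split. In 17 members neither atg5 Rehydration spot was well above background, so those values are upper limits. The 53 had an atg5 median of -1.29 in Rehydration and a WT median of 0.11, and the 33 had 0.31 in atg5 and 0.64 in WT. The remaining 45 members had smaller atg5 falls, with medians of -1.27 on ABA and -1.25 in Dehydration, against -1.91 and -1.89 in WT, and 4 of them had neither atg5 change at -0.5 or below. Among the 224 probes that did not recover in WT, the median Rehydration change was -2.14 in atg5 and -1.38 in WT.

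**Figure D5:**
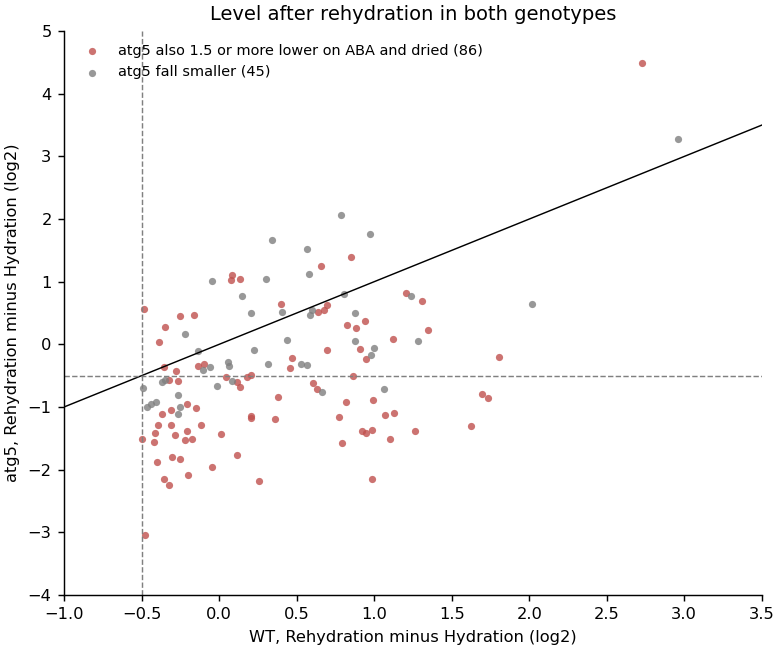
Rehydration minus Hydration in atg5 (vertical) against WT (horizontal) for the 131 members, in log2 units, mean of 2 arrays. Red points are the 86 members whose atg5 falls on ABA and in Dehydration both reached -1.5, and grey points the other 45. The solid line marks equal change and the dashed lines -0.5; the cut on the horizontal axis is the rule's own. Most points lie below the solid line, and the highest atg5 point is Pp1s8_86V6.1 at 4.49.

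Members that overshot in WT did not all do so in atg5. Of the 18 whose WT Rehydration level was 1 or more above Hydration, 9 were above 0 in atg5 and 8 at -0.5 or below. Of the 6724 detected probes, 30.2% lay at -0.5 or below in atg5. The 18 were picked by their high WT values, so lower atg5 values can come from that choice and nothing is read from these counts. Pp1s236_80V6.1 belonged to the second kind and was tightly replicated. Its atg5 levels were 5.53 and 5.42 in Hydration, 2.69 and 2.57 on ABA, 2.67 and 2.61 in Dehydration, and 4.29 and 4.04 in Rehydration. In WT they were 4.82 and 5.04 in Hydration, 2.80 and 2.73 on ABA, 3.17 and 3.33 in Dehydration, and 6.49 and 6.62 in Rehydration. The rehydrated arrays lay above both Hydration arrays in WT and below both in atg5. In atg5 the transcript fell 9.5-fold on ABA (adjusted p = 3.12e-08) and 9.84-fold in Dehydration (adjusted p = 2.38e-08), and was 3.65-fold lower in Rehydration than in Hydration (adjusted p = 2.2e-06). Rehydration was 2.69-fold above Dehydration (adjusted p = 4.74e-05), a log2 difference that was turned to -1.62 by spike-in scaling.

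Pp1s39_275V6.1 was alike in direction. In atg5 the levels were 0.69 and 1.45 in Hydration, -1.75 and -1.25 on ABA, -2.67 and -1.78 in Dehydration, and -0.06 and 0.49 in Rehydration. The WT levels were 0.58 and 1.00 in Hydration, -0.89 and -0.93 on ABA, -1.13 and -0.90 in Dehydration, and 2.32 and 2.72 in Rehydration. The rehydrated WT arrays lay well above Hydration and the atg5 arrays below it. In atg5 the transcript fell 3.54-fold on ABA (adjusted p = 6.57e-05) and 4.66-fold in Dehydration (adjusted p = 1.36e-05), and Rehydration minus Hydration was -0.44 (SE 0.20, adjusted p = 0.124).

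Pp1s8_86V6.1 went further in atg5 than in WT. Levels in atg5 were -3.40 and -3.66 in Hydration, -6.58 and -6.81 on ABA, -6.21 and -7.44 in Dehydration, and 1.01 and 0.91 in Rehydration. The WT levels were -3.42 and -3.13 in Hydration, -6.43 and -6.25 on ABA, -7.40 and -5.47 in Dehydration, and -0.48 and -0.60 in Rehydration. All rehydrated arrays lay above all others, and the atg5 ones above the WT ones. The atg5 spots were not well above background on ABA and in Dehydration, where the transcript was at least 1.33-fold (adjusted p = 0.03) and at least 1.46-fold (adjusted p = 0.0352) lower than in Hydration. After rehydration it was 10.4-fold above Hydration (log2 3.37, SE 0.18, adjusted p = 2.37e-07).

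Other members with the highest WT Rehydration values, a choice made on WT alone, were read lower or not at all in atg5. Pp1s370_52V6.1 had Rehydration levels of 0.35 and 0.30 in atg5 and 2.16 and 2.50 in WT, with Hydration levels of -0.56 and -0.07 in atg5 and 0.18 and 0.44 in WT. Its atg5 Rehydration level was 1.51-fold above Hydration (adjusted p = 0.0416), its Dehydration level 1.66-fold below it (adjusted p = 0.0187), and its ABA value was -0.55 (SE 0.20, adjusted p = 0.0752). With spike-in scaling the first 2 values turned to log2 values of -0.89 and 0.02. Pp1s12_414V6.5 had Rehydration levels of -1.96 and -1.88 in atg5 and -0.38 and -1.14 in WT, and in atg5 its Dehydration level was 1.82-fold below Hydration (adjusted p = 0.005). Pp1s78_98V6.1, the highest of all in WT with a change of 2.96, was not well above background on any of the 8 atg5 arrays, so its atg5 values give no fold.

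The members whose mean ABA and Dehydration change differed most between the genotypes were of several kinds. Pp1s119_138V6.1 was read lower on ABA and in Dehydration in WT, with no such drop on the atg5 arrays. Its atg5 levels were 2.45 and 2.49 in Hydration, 2.96 and 2.97 on ABA, 2.44 and 2.48 in Dehydration, and 2.39 and 2.88 in Rehydration. In WT they were 1.74 and 1.74 in Hydration, 0.05 and -0.16 on ABA, -0.38 and -0.56 in Dehydration, and 1.49 and 1.55 in Rehydration. Every atg5 array lay above every WT array, and the atg5 arrays stayed between 2.39 and 2.97. Its atg5 values against Hydration were 0.28 on ABA (SE 0.16, adjusted p = 0.27) and -0.09 in Dehydration (SE 0.16, adjusted p = 0.754), and neither passed the test. With spike-in scaling its atg5 values passed it at 0.97 in Dehydration minus Hydration, -1.76 in Rehydration minus Hydration and -2.74 in Rehydration minus Dehydration.

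Pp1s72_43V6.1 was read with smaller changes in atg5 than in WT. In atg5 the levels were 6.58 and 6.15 in Hydration, 5.40 and 5.41 on ABA, 5.56 and 5.70 in Dehydration, and 6.11 and 5.99 in Rehydration. In WT they were 6.98 and 7.31 in Hydration, 4.64 and 4.67 on ABA, 4.14 and 4.30 in Dehydration, and 7.61 and 7.30 in Rehydration. On ABA and in Dehydration the atg5 arrays lay above the WT arrays, and in Hydration and Rehydration below them. In atg5 it fell 2.69-fold on ABA (adjusted p = 0.0124) and 2.09-fold in Dehydration (adjusted p = 0.0445), and Rehydration minus Dehydration was 0.39 (SE 0.35, adjusted p = 0.452), or -2.52 with spike-in scaling.

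Pp1s7_394V6.1 fell further in atg5, from a higher start. Its atg5 levels were 0.04 and -0.23 in Hydration, -3.55 and -6.43 on ABA, -4.20 and -4.11 in Dehydration, and -2.22 and -2.27 in Rehydration. In WT they were -1.38 and -1.32 in Hydration, -3.54 and -4.80 on ABA, -3.78 and -3.36 in Dehydration, and -0.22 and -0.51 in Rehydration. In Hydration the atg5 arrays lay above the WT arrays, and in Rehydration below them. In atg5 it fell 4.93-fold on ABA (adjusted p = 4.86e-06) and 5.06-fold in Dehydration (adjusted p = 3.69e-06), and was 2.22-fold lower in Rehydration than in Hydration (adjusted p = 0.000649). Pp1s196_72V6.3 completes the 5 largest differences with Pp1s78_98V6.1, and its replicates disagree. Its ABA arrays read -4.07 and 0.74 in atg5 and -4.93 and -1.07 in WT, and its Dehydration arrays -4.10 and 1.09 in atg5 and -5.93 and -0.37 in WT. The first value of each pair is replicate 1, so the large drop was seen on that slide alone in both genotypes. On replicate 2 the Hydration levels were -1.18 in atg5 and -0.64 in WT, so the WT Dehydration level there was not below Hydration.

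A pair of members with the brightest spots, Pp1s232_5V6.1 and Pp1s68_12V6.1, was not in the channel fit because of outlier-marked spots. Pp1s232_5V6.1 had atg5 levels of 5.53 and 5.78 in Hydration, 2.09 and 3.90 on ABA, 2.55 and 2.02 in Dehydration, and 4.36 and 3.93 in Rehydration. Its WT levels were 5.96 and 5.65, then 2.35 and 3.86, then 3.89 and 3.06, and 7.20 and 6.62 in Rehydration. The rehydrated arrays were above Hydration in WT and below it in atg5, as for Pp1s236_80V6.1. Pp1s68_12V6.1 returned in both, to 4.93 and 4.87 in atg5 and 5.04 and 5.04 in WT, against Hydration levels of 3.68 and 3.87 in atg5 and 4.29 and 4.63 in WT.

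Set directly against WT on the same arrays, 130 members were in the ratio fit of 19662 probes. The WT channel of these ratios was used by the rule, so the counts are given beside those of all probes and nothing is read from them. In Hydration 33 members were called lower in atg5 and 33 higher (25.4% each), against 16.4% and 15.5% of all probes. On ABA 10 were lower and 37 higher, against 4.88% and 8.57%. In Dehydration 22 were lower and 36 higher, against 6.58% and 12.3%. In Rehydration 53 were lower and 11 higher, against 7.38% and 7.02%, with a median log2 ratio of -0.29, against 0.01 over all probes. With the replicate number as a block, 17 members were lower on ABA. Without loess, on median-centred ratios, limma called none of the 19662 probes in any treatment, members included. Of the members, 48, 6, 10 and 18 had an unadjusted p under 0.05 in Hydration, ABA, Dehydration and Rehydration. The change of the ratio from Hydration was called lower in 6 members and higher in 17 for ABA, against 3.74% and 5.23% of all probes. For Dehydration it was lower in 14 and higher in 27 (5.66% and 7.90% of all probes), and for Rehydration lower in 48 and higher in 14 (11.3% and 11.1%).

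Probes chosen on 1 replicate number were also lower on ABA and in Dehydration on the other, by their medians. Their shares with a WT Rehydration change over -0.5 lay nearer to those of all probes. When the rule was applied to replicate 1 alone it took 146 probes, 93 of them members, and these were read on replicate 2. Their medians there were -1.62 on ABA, -1.67 in Dehydration and -0.30 in Rehydration in atg5, and -1.81, -1.90 and 0.31 in WT. Over the 7057 probes detected they were -0.06, -0.04 and -0.01 in atg5 and -0.02, -0.02 and 0.02 in WT. The WT Rehydration change was over -0.5 in 114 of the 146, against 66.2% of the 7057. The rule on replicate 2 alone took 239 probes, 87 of them members. On replicate 1 their medians were -1.98, -2.09 and -0.71 in atg5 and -1.94, -2.07 and -0.07 in WT. Over the 11051 probes detected they were -0.16, -0.11 and -0.12 in atg5 and -0.10, -0.06 and -0.20 in WT. The WT Rehydration change was over -0.5 in 157 of the 239, against 59.3% of the 11051. The atg5 minus WT level in Rehydration had a median of -0.65 on replicate 2, against -0.10 over the 7057 probes detected. On replicate 1 it was -0.52, against 0.06 over 11051 probes. In Hydration the same difference had medians of -0.02 and 0.09, on ABA of 0.04 and -0.01, and in Dehydration of -0.02 and 0.02. The rule used WT Rehydration values, so the reverse choice was made as well. The rule on the atg5 channels, with detection asked of atg5 as well, took 80 probes, 26 of them members. Their median change in Rehydration was 0.13 in atg5 and 0.23 in WT, and their atg5 minus WT level in Rehydration had a median of 0.25, against -0.67 over the members. It was below 0 in 34 of these 80 probes and in 107 of the 131 members. In both sets these values come from arrays that chose the probes, so nothing is read from their sign.

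Other probes of the members' loci were also mostly lower on ABA and in Dehydration, with smaller changes. Their Rehydration medians lay below those of all probes in both genotypes. Probes that met the whole rule are members and so are not among them, so nothing about recovery is read from these medians. Detection was not asked of the Rehydration arrays, and some of these probes were not well above background there. The array held 73 further probes for 33 of the 118 loci, and 64 were well above background on both WT Hydration arrays. Of these 64, the atg5 level was below Hydration in 57 on ABA and 54 in Dehydration, against 62.6% and 58.0% of all probes so detected. The WT level was below Hydration in 60 on ABA and 58 in Dehydration, against 61.7% and 58.0%. A change of -1.5 or less was read in 30 on ABA and 30 in Dehydration in atg5, against 13.5% and 14.6% of all probes so detected. In WT it was read in 31 and 31, against 12.8% and 13.5%. The Rehydration change was over -0.5 in 27 of the 64 in atg5 and 33 in WT, against 61.2% and 57.4% of all probes so detected. Their medians on ABA, in Dehydration and in Rehydration were -1.42, -1.32 and -0.86 in atg5 and -1.44, -1.42 and -0.47 in WT. Over all probes so detected they were -0.27, -0.20 and -0.20 in atg5 and -0.25, -0.19 and -0.30 in WT. Probes of 1 locus may read shared transcript sequence and are not independent.

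A group of 8 loci had several member probes, 21 in all. The 4 probes of Pp1s1_405 were above Hydration in rehydrated atg5, by 0.56 to 1.10, while their WT values ran from -0.49 to 0.13. One of them, Pp1s1_405V6.5, had the deepest WT value of any member on ABA (-6.53, with -7.15 in atg5), where its 3 sister probes had between -3.25 and -2.52 in WT. The 2 probes of Pp1s75_107 were also above Hydration in rehydrated atg5, by 1.25 and 1.40, and by 0.65 and 0.85 in WT. The 4 probes of Pp1s15_433 ran from -0.96 to -0.32 in atg5 and from -0.44 to 0.53 in WT. The 2 probes of Pp1s97_59 agreed in order, at -1.29 and -0.61 in atg5 and -0.12 and 0.60 in WT.

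The members were spread over 83 scaffolds, of which 23 held 2 or more member loci and none more than 5. Locus numbers within 10 of each other, taken as neighbours, occurred in 8 pairs of 15 loci. Pp1s232_1V6.1, Pp1s232_3V6.1 and Pp1s232_5V6.1 formed 2 of the pairs and changed alike. Their Rehydration changes were -1.37, -1.57 and -1.51 in atg5 and 0.99, 0.79 and 1.10 in WT. Near-identical copies would share signal on these probes, and this could not be checked without their sequences. Pp1s39_275V6.1 and Pp1s39_281V6.1 were at -0.85 and -1.13 in rehydrated atg5 and 1.73 and 1.07 in WT. Pp1s252_5V6.1 and Pp1s252_11V6.1 differed, with ABA changes of -2.18 and -0.27 in atg5 and -2.88 and -1.56 in WT.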

How the data were processed

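Gene expression was measured on 8 two-colour arrays with 39733 spots each. The deposited scanner files hold spot intensities (median pixel signals, local background, and background-subtracted, dye-normalized processed signals) that the authors produced with Agilent Feature Extraction 9.5.3.1 per the file headers, or 9.1 per the submitters' processing notes. The authors' deposited value table equals these processed signals in 16 of 16 columns and was not used further. The labels give 200 ng of RNA per labelling. Groups, dyes and replicate numbers came from the labels.

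Members were found from the processed signals after averaging the 38316 gene spots by probe. Tests used limma 3.58.1 in R 4.3.3: normexp background correction with an offset of 50 on the median signals, loess within arrays, then either log ratios (atg5 over WT, dye swap turned) or Aquantile between arrays with lmscFit, eBayes and Benjamini-Hochberg adjustment over all probes tested at 0.05. A probe stayed in the fits if some genotype and treatment had it well above background on its 2 arrays, which kept 19739. Aquantile with the separate-channel fit, and the ratio fit, were tested on simulated normalized values with known changes on ABA. The simulated arrays varied independently of each other. Background correction, loess, the rule, spike-in scaling and the "at least" folds were not simulated. Tables were made with Python 3.11.15 and pandas 2.3.3. The number of arrays limits the precision. Because the numbers 1 and 2 are also slide and dye orientation, pairing was checked: ratios with the same number deviated together (correlations 0.272 to 0.537, 6 of 6 pairs over 0.1), atg5 channel levels did not (0.058 to 0.105, 1 of 6).

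Members, thresholds and lists were chosen with earlier results of these data known. Named members, 1 probe per locus (the brightest in WT Hydration), are the 10 with the largest mean WT fall, the 5 highest in WT Rehydration, the 5 brightest, the 5 with the largest genotype difference in the mean of the ABA and Dehydration changes, and the probes next to each threshold. The members with several probes per locus, the neighbours and the rule on atg5 were added after values were seen. Identifiers were looked up in a RefSeq table of 27567 genes, and 0 matched.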

Additional observations from a re-analysis of the deposited data

Results flagged for a closer look

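For the named members, a difference between the atg5 and the WT response was tested as the change of the atg5 over WT log2 ratio from Hydration, in the limma ratio fit. The values below passed an adjusted p of 0.05 and are a description, because the WT channel of each ratio was used to choose the members. Some members were also named for a large genotype difference on ABA and in Dehydration, or for a high WT Rehydration value. Their differences in those treatments were large by that choice. On median-centred ratios no probe tested, member or not, was called within any treatment. Negative values mean that atg5 changed downward relative to WT.

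For Rehydration minus Hydration the value was negative in Pp1s236_80V6.1 at -3.10 (SE 0.13), Pp1s7_394V6.1 at -1.82 (SE 0.13), Pp1s39_275V6.1 at -1.70 (SE 0.13), Pp1s97_59V6.1 at -1.34 (SE 0.20) and Pp1s370_52V6.1 at -1.31 (SE 0.13). It was also negative in Pp1s57_188V6.2 at -1.25 (SE 0.19), Pp1s72_43V6.1 at -1.25 (SE 0.29), Pp1s201_96V6.1 at -0.85 (SE 0.13), Pp1s12_414V6.5 at -0.82 (SE 0.17), Pp1s194_4V6.2 at -0.82 (SE 0.18) and Pp1s13_239V6.1 at -0.57 (SE 0.18). It was positive in Pp1s8_86V6.1 at 1.06 (SE 0.16), Pp1s72_188V6.1 at 0.79 (SE 0.18) and Pp1s48_131V6.1 at 0.65 (SE 0.16).

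For ABA minus Hydration the value was positive in Pp1s119_138V6.1 at 2.15 (SE 0.15), Pp1s72_43V6.1 at 1.37 (SE 0.29), Pp1s48_131V6.1 at 1.07 (SE 0.16), Pp1s370_52V6.1 at 0.97 (SE 0.13) and Pp1s72_188V6.1 at 0.83 (SE 0.18). A value of 0.68 (SE 0.18) was computed for Pp1s78_98V6.1 too, but its atg5 spots were not well above background in any treatment, so it is a difference of limits and shows no difference in response. It was negative in Pp1s7_394V6.1 at -1.09 (SE 0.13), Pp1s236_80V6.1 at -0.82 (SE 0.13), Pp1s97_59V6.1 at -0.73 (SE 0.20) and Pp1s39_275V6.1 at -0.49 (SE 0.13).

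For Dehydration minus Hydration the value was positive in Pp1s119_138V6.1 at 2.15 (SE 0.15), Pp1s72_43V6.1 at 1.95 (SE 0.29), Pp1s48_131V6.1 at 1.33 (SE 0.16), Pp1s72_188V6.1 at 0.72 (SE 0.18) and Pp1s370_52V6.1 at 0.66 (SE 0.13). It was negative in Pp1s236_80V6.1 at -1.33 (SE 0.13), Pp1s7_394V6.1 at -1.32 (SE 0.13), Pp1s39_275V6.1 at -0.87 (SE 0.13) and Pp1s97_59V6.1 at -0.75 (SE 0.20). In Pp1s48_131V6.1 and Pp1s8_86V6.1 atg5 spots were below background in some treatments, and their ratios there are limits.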

How the results depend on the processing

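The rule gave 131 members, 57 with loess and Aquantile signals, 0 with spike-in scaling, and 146 to 239 on 1 replicate. The atg5 counts called lower (86 on ABA, 85 in Dehydration) became 16 and 23 with median centring and 51 and 40 with spike-in scaling, and ran from 67 to 74 and from 66 to 73 with 1 array left out. Of all probes, 2.64% on ABA and 3.62% in Dehydration were called in either direction with median centring, and 10.4% and 41.0% with spike-in scaling. Rehydration against Hydration (31 lower, 17 higher) gave 0 lower with median centring and 58 lower and 1 higher with spike-in scaling, 10 higher on processed signals and 7 higher on the atg5 channels alone. With 1 array left out it gave 29 to 31 lower and 12 to 19 higher. Rehydration against Dehydration (84 higher) gave 33 with median centring, 4 with spike-in scaling (and 33 lower) and 53 to 84 with 1 array left out, 53 being without Dehydration replicate 1. With median centring, 31 members had an unadjusted p under 0.05 between Rehydration and Hydration in limma. Between Rehydration and Dehydration, 1.86% of all probes were called in either direction with median centring, and 60.7% with spike-in scaling.

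The atg5 over WT counts, lower and higher, were 33 and 33 in Hydration, 10 and 37 on ABA, 22 and 36 in Dehydration and 53 and 11 in Rehydration. On processed signals the first 3 pairs were 9 and 10, 4 and 14, and 9 and 15. Median centring gave 0 in each, as it did over all 19662 probes tested, with 48, 6, 10 and 18 members at an unadjusted p under 0.05 in limma. Without the filter on dim probes ABA gave 5 and 24. With 1 array left out the ranges were 15 to 35 and 15 to 34 in Hydration, 3 to 10 and 15 to 37 on ABA, 10 to 23 and 23 to 37 in Dehydration, and 30 to 52 and 9 to 11 in Rehydration. Hydration without its replicate 1 gave 15 and 15, and without its replicate 2 gave 20 lower. ABA without its replicate 1 gave 3 and 22, and without its replicate 2 gave 4 and 15. Dehydration without its replicate 1 gave 10 lower, and without its replicate 2 gave 11 and 23. Rehydration without its replicate 1 gave 35 lower, and without its replicate 2 gave 30 lower. With the replicate block 17 members were lower on ABA, and the other counts stayed within 1.5 times. The causes were not tested.

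Over all alternatives, the named members' atg5 values kept direction and side of the threshold in 754 cases, lost the call in 103, gained it in 16 and turned sign without a call in 34. Spike-in scaling reversed 13. Rehydration minus Dehydration in atg5 became -0.20 in Pp1s48_131V6.1, -0.92 in Pp1s201_96V6.1, -0.10 in Pp1s194_4V6.2, -0.079 in Pp1s97_59V6.1, -0.91 in Pp1s370_52V6.1, -0.093 in Pp1s12_414V6.5, -0.23 in Pp1s39_275V6.1, -2.52 in Pp1s72_43V6.1, -1.62 in Pp1s236_80V6.1 and -0.20 in Pp1s7_394V6.1. Rehydration minus Hydration became -0.89 in Pp1s370_52V6.1. Dehydration minus Hydration became 0.02 in Pp1s370_52V6.1 and 0.97 in Pp1s119_138V6.1. Spots near background limit the folds of dim members.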

Other observations

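Of the probes that were no members, Pp1s194_4V6.3, Pp1s63_52V6.2, Pp1s244_32V6.1, Pp1s58_289V6.1 and Pp1s32_353V6.1 were most like the members' mean profile, with Pearson correlations of 0.943 to 0.953 over the 16 channels. Channels of 1 array share a hybridisation. Pp1s194_4V6.3 is a probe of a member's locus and missed the rule in Rehydration, at -0.58 in WT, with -1.68 in atg5. Pp1s63_52V6.2 also shares a locus with a member and missed the falls, with -1.25 on ABA in atg5 and -1.30 in WT. Pp1s244_32V6.1 changed least of the 5, with -0.47 on ABA in atg5 and -0.58 in WT.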
